A study of Anopheles gambiae with 18 samples.

Results

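The direct comparison of the cardia with the posterior midgut of female *Anopheles gambiae* was made on 3 of the 18 arrays of a study of the mosquito midgut. These 3 arrays were taken by their labels, which give the cardia sample to Cy5 and the posterior midgut sample to Cy3 on each. Of the 14197 transcripts on the array, 13908 had a ratio on all 3 arrays and were tested. The study used oligonucleotide arrays to compare single compartments of the female midgut with the whole female midgut. It also compared the cardia with the posterior midgut, and the male with the female midgut, directly. All mosquitoes of this comparison were adult females of the Keele strain, 4 days old and not blood fed, kept on a sucrose solution. The cardia and the posterior midgut were dissected from such females, and the methods call the 3 arrays biological replicates, without saying how many guts each pool held. No dyes were swapped, so on these arrays a difference between both tissues cannot be told apart from a dye effect of the probe. The study also compared some genes between cardia and posterior midgut by real-time PCR, which uses no dye pair. Cecropin 3, gambicin, defensin and PGRPLC1 were among them, and those values were not used here.

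The cardia, also called the proventriculus, is the valve at the front of the insect midgut, where the foregut enters it. Its walls carry foregut cuticle, muscle and midgut epithelium, and in many insects it secretes components of the peritrophic matrix, the chitin and protein sheath that lines the gut. The posterior midgut is the widened part in which the blood meal is held and digested by trypsins and other proteases, and in which malaria parasites cross the epithelium.

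A value below is the log2 ratio of cardia to posterior midgut after the median of the array was set to 0, so that 1 is a 2-fold higher ratio than that of the median transcript. A ratio gives no level, so the presence of a marker in either tissue could not be checked, only its balance between them. Transcripts carry the study's short form of their Ensembl identifier (EN and its last digits). On arrays 1, 2 and 3, 15485, 15404 and 15230 features had a ratio, and the array medians before centring were -0.16, -0.56 and 0.14. The deposited values hold no signal, but a ratio of very few units can be seen, because it equals a fraction of small whole numbers (a denominator of 10 or less, within 0.00051 of the linear ratio). Such small-fraction ratios made up 23.7%, 32.8% and 68.2% of the features of the 3 arrays. Across all transcripts, pairs of arrays correlated at Pearson r of 0.28 to 0.29, with genes as the points and not as replicates. Across the 1931 transcripts of the study's male-versus-female table, which was chosen on other arrays, r was 0.61 to 0.72, and across the 3305 transcripts with no small-fraction ratio it was 0.57 to 0.74. For repeated spots of 1 transcript on the same array r was 0.11 to 0.19, and the median difference between them was 0.52 to 0.57 (log2).

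Calls required a 2-fold or larger mean change together with a limma p under 0.05 after Benjamini-Hochberg adjustment. By this rule 61 transcripts, 0.439% of those tested, were higher in the cardia and 2, or 0.0144%, were higher in the posterior midgut. The calls in the cardia had mean changes of 2.93-fold to 11.2-fold, with a median of 3.77-fold, and 44 of them were in the male-versus-female table, where they were 2.28% of 1931 tested beside 0 (0.00%) in the posterior midgut. This split depended on the centring. Without centring the counts were 138 and 312, and with the median of the male-versus-female table at 0 they were 0 and 0, with 179 and 506 at an unadjusted p. The other centrings lowered every mean by 0.19 and 0.21 on the log2 scale. The counts also changed with the array left out. Without array 1 limma called 0 and 0 (383 and 349 at an unadjusted p), where 402 and 603 were beyond 2-fold. It called 137 and 59 without array 2, and 16 and 2 without array 3. Array 1 was the lowest of the 3 in 34 of the 61 calls in the cardia and the highest in 18. The 63 calls were thus all lost with the male-versus-female median at 0 and without array 1, and 16 of the 61 in the cardia were kept without array 3. Of the 68 transcripts that the naming rule gives, 0 changed sign under these settings. Most were picked for large means on these arrays, and the mean nearest to 0 was -0.30. The shifts of the centrings were too small to reverse any of them.

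By a mean change of 2-fold alone, which the study took as enrichment, 316 transcripts (2.27%) were higher in the cardia and 317 (2.28%) in the posterior midgut. Both sets had a different spread. The cardia set had a median SD between arrays of 0.28 and 309 of its members had the same sign on 3 of 3 arrays, and 48.1% had a small-fraction ratio. The posterior set had a median SD of 0.99 and 255 members with the same sign, and 85.5% had a small-fraction ratio. Over all transcripts tested the median SD was 0.36, and 76.2% had a small-fraction ratio. A change of at least 2-fold on each of the 3 arrays was found for 162 transcripts (1.16%) in the cardia and 21 (0.151%) in the posterior midgut. These became 78 and 75 without centring, 101 and 75 with the male-versus-female median at 0, and 262 and 167 without array 1. With an unadjusted p under 0.05 beside the mean change, limma gave 315 (2.26%) and 232 (1.67%), and the methods' t-test gave 251 (1.80%) and 62 (0.446%), of which 0 and 0 passed after adjustment. With the array medians at 0 the side of the cardia was the fuller one in the transcripts with the best agreement. The male-versus-female table then had a median of 0.19. Counts within it and among transcripts with no small-fraction ratio were not repeated under the other centrings. Of the male-versus-female table, 185 (9.58%) and 23 (1.19%) were beyond 2-fold, 117 (6.06%) and 4 (0.207%) on each array, and limma fitted to that table alone called 185 (9.58%) and 19 (0.984%). Among the 3305 transcripts with no small-fraction ratio limma called 164 (4.96%) and 46 (1.39%). The 2-fold counts over all transcripts tested became 194 and 613 without centring, and 184 and 655 with the male-versus-female median at 0.

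**Figure D1:**
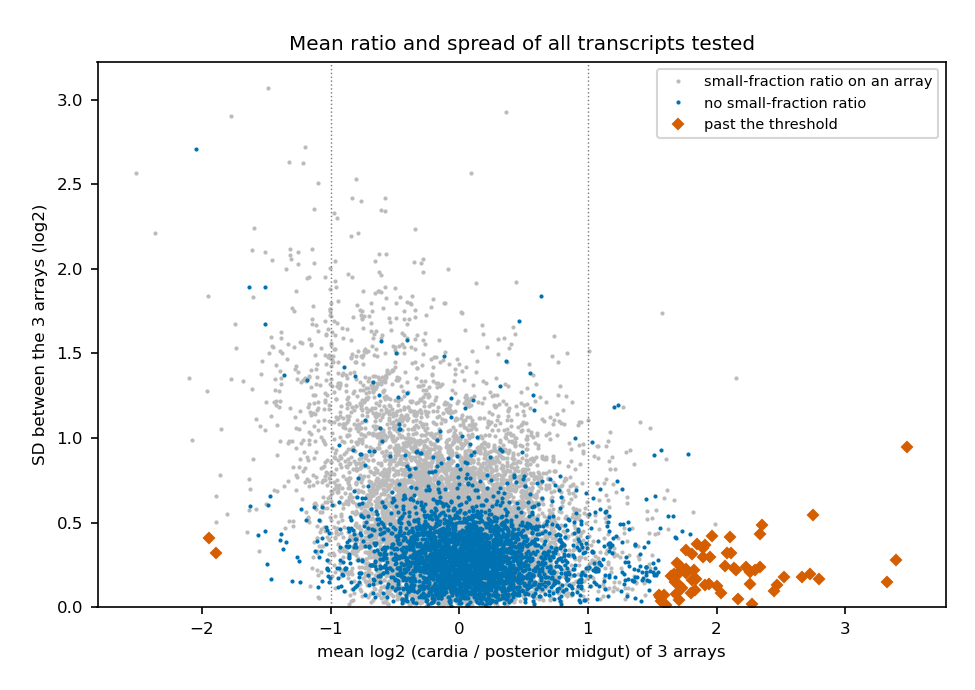
Mean log2 ratio of cardia to posterior midgut (x axis) and SD between the 3 arrays (y axis, log2) of the 13908 transcripts tested, with those past the threshold in orange and 2-fold changes at the dotted lines. Most transcripts with a mean beyond 2-fold on the left have a high SD and a small-fraction ratio (grey), which 76.2% of all tested have. The 61 called on the right mostly have an SD under 0.5.

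Names of transcripts came from the homology text of the study's supplementary table, and 1838 of the transcripts tested had one. In the part of that table for this comparison, the text of 336 rows from one row on stood 1 row above its identifier and was moved down. Among 312 rows that could be placed against other parts of the table, the 189 before that row were in place and the 123 after it were 1 row off. Of 26 texts that name a family which the array's own row names also give, 20 fell on a row of that family as listed and 26 after the move. The move changed the text of 258 tested transcripts, 17 of them called, and each name below is the one after it. The study chose this part of the table on these 3 arrays, so counts over the lists below are not independent of the direction, and most lists are therefore also given over their members in the male-versus-female table.

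Among the effectors of immunity with a homology text, the antimicrobial peptides and lysozymes, most were called in the cardia. Of 4 antimicrobial peptides, 3 were called in the cardia, and each of the 4 was at least 2-fold higher on each array, with a median of 1.70 beside -0.02 over all transcripts tested. All 3 that are in the male-versus-female table were called. In the cardia 0.439% of all transcripts tested and 2.28% of that table were called. Cecropins insert into bacterial membranes. The cecropin CEC3/CECB (EN011995) had ratios of 1.50, 2.17 and 2.01 on arrays 1, 2 and 3 (mean 1.89 ± 0.35, SD, n = 3, adjusted p = 0.0431). The cecropin CEC2/CECC (EN011963) had ratios of 1.64, 1.70 and 1.86. Gambicin (EN013255), a mosquito antimicrobial peptide, had ratios of 1.89, 1.53 and 1.58, with the highest on array 1. Defensin (EN015621), a cysteine-rich peptide that acts mainly on Gram-positive bacteria, was not called, at an adjusted p of 0.0572, with ratios of 1.39, 1.41 and 1.52. Its means of 2 spots hid a wider spread, since 1 spot gave 1.04, 1.78 and 1.71 and the other 1.74, 1.04 and 1.33.

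Lysozymes cut the peptidoglycan of the bacterial cell wall. Of 3 lysozyme c transcripts, 2 were called in the cardia, and each of the 3 is in the male-versus-female table, where 2.28% were called. EN025070 had ratios of 2.71, 2.70 and 2.99 and a mean 6.95-fold higher in the cardia (adjusted p = 0.0277). EN018439 had ratios of 1.60, 1.59 and 1.62, an SD of 0.01 that was the lowest among the transcripts called. EN018395 had ratios of 0.84, 1.53 and 1.13 and was not called (adjusted p = 0.112), and its 2 spots differed most on array 1, at 0.07 and 1.61.

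Of the proteins that bind microbes or parasites, the C-type lectins held the highest ratios. C-type lectins bind sugars, and in *A. gambiae* CTL4 and CTLMA2 are known to be secreted as a pair and to keep the parasites of rodent malaria from being melanized. CTLMA2 (EN020910) had ratios of 2.55, 2.70 and 2.94, and its mean was 6.63-fold higher in the cardia (adjusted p = 0.0277). CTL4 (EN021166) had ratios of 1.79, 1.95 and 2.07 (mean 1.94 ± 0.14, adjusted p = 0.0404), and the male-versus-female part of the supplement gives it the same name. Both had 3 arrays close together and none near 0. The name CTLMA2 at EN020910 follows from the move of the text by 1 row, while EN021166 is named CTL4 without the move too. As listed for this comparison, CTL4 stands at EN021138, with ratios of -0.36, -0.63 and -0.55. CTLMA2 stands there at EN020902, with ratios of -0.67, -0.58 and -0.75. After the move EN021138 and EN020902 carry the texts snake protease precursor and GCN5, and neither was called. Another lectin, CTLGA3 (EN012234, chosen after its values were seen), had ratios of 1.21, 1.35 and 1.52 (adjusted p = 0.0607). Over the list of C-type lectins and galectins, 2 of 11 were called in the cardia and 0 in the posterior midgut, with a median of 0.20, and 1 of the 4 in the male-versus-female table was called, with a median of 0.81 beside 0.19 over that whole table.

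The other recognition families held 2 calls. Thioester-containing proteins (TEPs) are complement-like proteins, of which TEP1 binds malaria parasites in the mosquito. TEP1 (EN016857) had ratios of 0.39, 1.21 and 1.41 and was not called (adjusted p = 0.193), with array 1 the lowest. Its 4 spots ranged from -0.61 to 1.48 on array 1. TEP14 (EN019727) had ratios of 0.91, 1.54 and 1.94 (adjusted p = 0.0952), and TEP9 (EN018117) had the lowest mean of the list, at -0.56. By limma, 0 of 11 TEPs were called, and the median was -0.16. With the family taken from the array's row names it was 0 of 22, with 2 TEPs at least 2-fold higher in the cardia and 1 in the posterior midgut. In the male-versus-female table limma called 0 of 3, with a median of -0.17.

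Fibrinogen-domain proteins (FBNs) bind microbial surfaces. FBNA3 (EN022867) was the call among 17, with ratios of 1.81, 1.68 and 1.45, each of which included small-fraction spots. FBN9 (EN011248), known to bind bacteria, had ratios of 0.83, 2.12 and 1.91 (adjusted p = 0.11), and FBN8 (EN011252) had 0.47, 1.01 and 1.35. Array 1 was the lowest for both. By the row names, 1 of 45 FBNs tested was called, and FBNA3 was the call among 7 in the male-versus-female table. In the cardia 0.439% of all transcripts tested and 2.28% of that table were called. Of the peptidoglycan and Gram-negative recognition proteins (PGRPs and GNBPs), 0 of 11 were called by limma. In the cardia 2 were at least 2-fold higher, and 7 were above 0 on 3 of 3 arrays. Over all transcripts tested these shares were 2.27% and 19.9%. In the male-versus-female table, which holds 8 of the 11, they were 9.58% and 827 of 1931. The median of the 11 was 0.38. Over the 8 in that table, of which 0 were called, it was 0.40, beside 0.19 over the whole table. PGRPS3 (EN012979) was the highest, with ratios of 1.47, 1.22 and 1.17, and the receptor PGRPLC1 (EN010323, chosen after its values were seen), which starts the Imd immune pathway, had 1.17, 1.27 and 1.05. The leucine-rich repeat protein LRRD7 (EN021822), a midgut factor known to limit parasites, was the call among 22 Toll, leucine-rich repeat and scavenger receptors, whose median was -0.33. It is not in the male-versus-female table, where limma called 0 of 11 with a median of -0.07. Its ratios were 1.52, 2.03 and 2.35 (mean 1.96 ± 0.42, adjusted p = 0.0431). As listed, its name would stand at EN021802, an esterase after the move, with ratios of -0.65, -0.44 and 0.18.

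CLIP-domain serine proteases act in cascades that end in the cleavage of prophenoloxidase and in melanin, and serpins inhibit such proteases. Of 18 members, 5 were called in the cardia and 0 in the posterior midgut, with a median of 0.32, and 1 of 8 was called in the male-versus-female table. CLIPA1 (EN020262) had ratios of 1.80, 2.53 and 2.73, and CLIP1 (EN020158) had 1.76, 2.36 and 2.23, with array 1 the lowest for both. CLIPB13 (EN012642) had a mean of 1.95 and was added after its values were seen, as the remaining protease among the calls. Prophenoloxidase 1 (EN016955) had ratios of 1.93, 1.95 and 1.65. The serpin SRPN6 (EN010545), which is known to rise in midgut cells that parasites invade, had ratios of 1.58, 1.60 and 1.47 (adjusted p = 0.0449). Over all immune lists, 14 of 97 were called in the cardia and 0 in the posterior midgut, and 25 and 2 were beyond 2-fold, while the median of the 97 was -0.01. The shares over all transcripts tested were 0.439% and 0.0144% called and 2.27% and 2.28% beyond 2-fold, and of the 1838 with a text 40 and 2 were called. Of the 47 in the male-versus-female table, 8 were called beside 2.28% of that table, and the median was 0.25 beside 0.19.

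**Figure D2:**
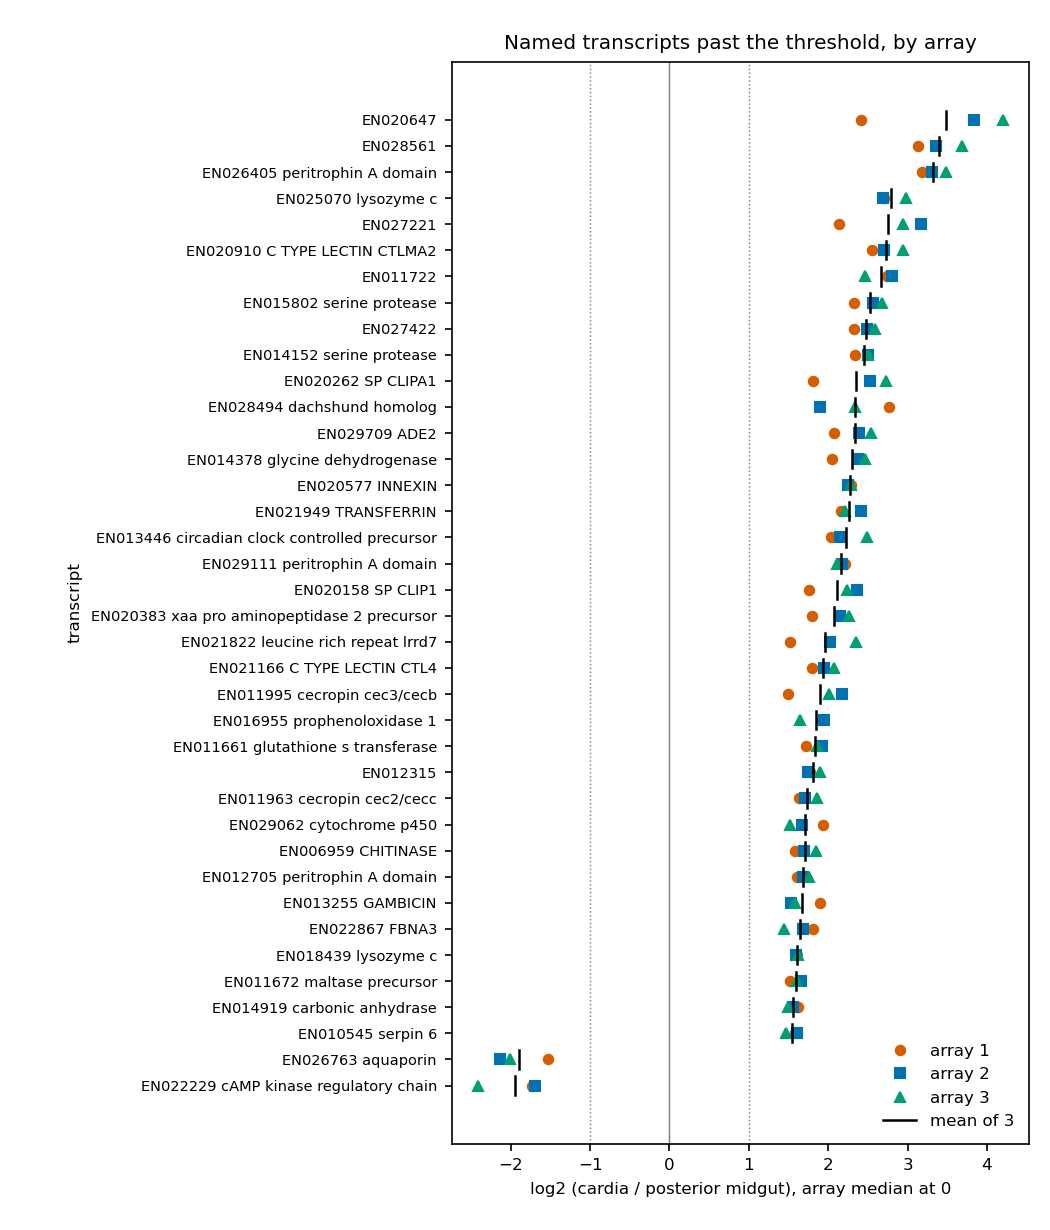
Log2 ratio of cardia to posterior midgut (x axis) on each of the 3 arrays for the 38 named transcripts past the threshold, with black bars for the means, dotted lines at 2-fold and no name where the table gives none. Arrays lie within 0.5 of each other for most, and array 1 is lowest by over 1 for EN020647.

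The peritrophic matrix proteins held the highest named ratio. Peritrophins bind chitin in the matrix, and chitinases cut it. Of 23 peritrophins and chitin proteins, 6 were called in the cardia and 0 in the posterior midgut, and 8 were at least 2-fold higher on each array. Over all transcripts tested 0.439% and 0.0144% were called, and 1.16% were at least 2-fold higher in the cardia on each array. Of the 1838 with a text 40 and 2 were called. Among the 12 in the male-versus-female table, calls numbered 4, beside 2.28% of that whole table. Their median was 1.12 beside 0.19 over that table. The peritrophin A domain transcript EN026405 had ratios of 3.18, 3.31 and 3.48, a mean 10.03-fold higher in the cardia (adjusted p = 0.0277). EN029111 had ratios of 2.21, 2.17 and 2.11, and EN012705 had 1.61, 1.68 and 1.76. The other peritrophins called were EN013392 with a mean of 2.003 and EN022863 with a mean of 1.76, both added after their values were seen. The 3 arrays of each of the first 3 lay within 0.30 of each other. A chitinase, EN006959, had ratios of 1.59, 1.69 and 1.84. The remaining 15 members were not beyond 2-fold, and the lowest had a mean of -0.66, so the family was divided.

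Digestive enzymes were also divided, with list medians below 0 over all members. Of 87 members 4 were called in the cardia, beside 0.439% of all transcripts tested. Of 46 serine proteases and trypsins, which cut dietary and other proteins, 2 were called in the cardia and 0 in the posterior midgut. EN015802 had ratios of 2.33, 2.57 and 2.68 (mean 2.53 ± 0.18), and EN014152 had 2.33, 2.51 and 2.50 (mean 2.45 ± 0.10). The median of the list was -0.28, and 19 members were below 0 on 3 of 3 arrays against 6 above 0. Over all transcripts tested these shares were 18.1% and 19.9%. The lowest means were those of EN021065, with ratios of -1.67, -0.92 and -1.45, and EN028603, with -1.07, -1.29 and -1.36, both chosen after their values were seen and neither called (adjusted p = 0.0892 and 0.0734). In the male-versus-female table both cardia calls were among 21 members, with a median of -0.09.

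Carboxypeptidases and aminopeptidases, which take single residues from the ends of peptides, had a median of -0.47. Of these 19, 10 were below 0 on 3 of 3 arrays and 2 above 0, and in the male-versus-female table limma called 0 of 7, with a median of -0.26. The call was a Xaa-Pro aminopeptidase (EN020383), higher in the cardia with ratios of 1.79, 2.14 and 2.27. Among 14 sugar-digesting enzymes a maltase (EN011672) was called in the cardia, with ratios of 1.52, 1.66 and 1.60. Of 8 lipases 0 were called by limma, and 2 were at least 2-fold higher in the cardia on each array, with the highest mean, 1.31, for EN009935. The lipase median was -0.18 over the 8 and 0.60 over the 4 in the male-versus-female table, and that of the sugar-digesting enzymes -0.26 over the 14 and 0.16 over 6 in it, with the maltase among them. Over the digestion lists together, 4 of 87 were called in the cardia and 0 in the posterior midgut, 6 and 6 were beyond 2-fold, and 36 were below 0 on each array against 13 above. Among the 1838 transcripts with a text, 40 and 2 were called, 112 and 78 were beyond 2-fold, and 552 were below 0 on each array against 515 above. In the male-versus-female table, 9 of 38 were below 0 on each array and 8 above, with a median of -0.04, beside 216 below and 827 above of 1931 in that whole table and its median of 0.19.

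The 2 transcripts called in the posterior midgut were those of a water channel and a regulator of cAMP signaling. Aquaporins let water cross cell membranes. The aquaporin EN026763 had ratios of -1.53, -2.14 and -2.01 (mean -1.89 ± 0.32, adjusted p = 0.0431), which was 3.71-fold higher in the posterior midgut. The type II regulatory chain of the cAMP-dependent kinase (EN022229), which holds the catalytic chains inactive until cAMP binds, had ratios of -1.73, -1.69 and -2.42 (mean -1.95 ± 0.41, adjusted p = 0.0431). Neither had a small-fraction ratio, and neither is in the male-versus-female table. A second aquaporin (EN017068) had ratios of -1.79, -1.002 and -1.39, and a sodium/hydrogen exchanger (EN004030) had -0.94, -1.998 and -1.94, both chosen after their values were seen and neither called (adjusted p = 0.0827 and 0.0892). Subunit D of the V-ATPase (EN010517), the proton pump of gut cell membranes, had ratios of -1.31, -1.40 and -1.79 (adjusted p = 0.0582). It stood apart from the other 11 subunits tested, whose means lay from -0.67 to 0.49.

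Among the 69 transporters and water channels, which include the carbonic anhydrases, 1 was called in each direction. Over all transcripts tested 0.439% were called in the cardia and 0.0144% in the posterior midgut. The call in the cardia was a carbonic anhydrase (EN014919), which interconverts carbon dioxide and bicarbonate, with ratios of 1.61, 1.56 and 1.50. A cytochrome P450 (EN029062) was the call among 37, with 1.93, 1.67 and 1.52, and a glutathione S-transferase (EN011661) the call among 39 conjugating enzymes and esterases, with 1.72, 1.92 and 1.86. Both families take part in detoxification, and their medians were 0.01 and 0.16, or 0.27 and 0.48 over the 23 and 25 members in the male-versus-female table, which include both calls. The transporters had a median of -0.16, and of 0.08 over 37 in that table, which holds the call in the cardia. The P450 with the lowest mean (EN025913, chosen after its values were seen) had ratios of -0.54, -4.82 and -1.72, so that 1 array set its mean. An innexin (EN020577), a protein of insect gap junctions, was the call among 14 adhesion and junction proteins, and its ratios of 2.29, 2.25 and 2.28 had an SD of 0.02.

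The other named calls in the cardia belonged to no list. Transferrin (EN021949), which binds iron, had ratios of 2.16, 2.42 and 2.21. The homolog of dachshund (EN028494), a transcriptional regulator known from *Drosophila* development, had 2.77, 1.90 and 2.34, with array 1 the highest. ADE2 (EN029709), an enzyme of purine synthesis, had 2.07, 2.39 and 2.54, and the mitochondrial glycine dehydrogenase (EN014378), which breaks down glycine, had 2.05, 2.38 and 2.47. A transcript with the text circadian clock controlled precursor (EN013446) had 2.03, 2.15 and 2.49. The 5 highest calls without a text included the highest 2 means of the comparison. EN020647 had ratios of 2.41, 3.84 and 4.20 (mean 3.48 ± 0.95, adjusted p = 0.0413), the widest spread among the calls, and EN028561 had 3.13, 3.36 and 3.69 (mean 3.40 ± 0.28, adjusted p = 0.0277). The remaining 3, EN027221, EN011722 and EN027422, had means of 2.75, 2.67 and 2.47. The study also names 4 short secreted transcripts without a text, of which 0 were called by limma here (adjusted p = 0.0917 to 0.159): EN009630 had a mean of 1.57, EN014362 of 1.50, EN004315 of 1.14 and EN016194 of 1.08, each with array 1 the lowest.

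**Figure D3:**
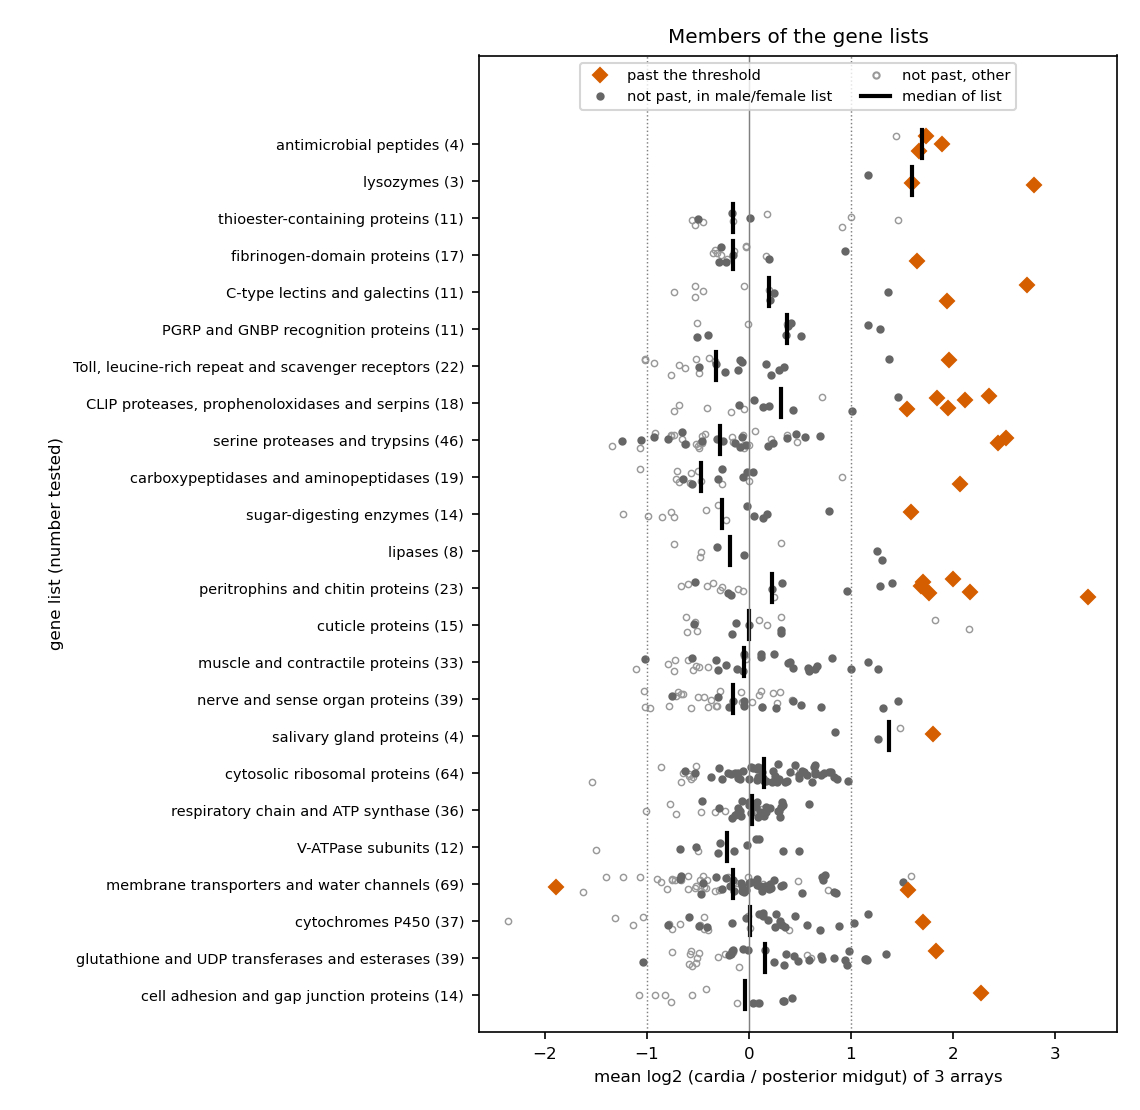
Mean log2 ratio of cardia to posterior midgut (x axis) of each member of 24 gene lists (rows, number tested in brackets), with list medians as black bars and 2-fold changes at the dotted lines. Antimicrobial peptides, lysozymes and salivary gland proteins have every member on the right, while the other lists spread on both sides of 0, with up to 6 members past the threshold.

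Transcripts of tissues that a cardia dissection can carry along, or that every cell expresses, were compared the same way. Of 33 muscle and contractile proteins, 39 nerve and sense organ proteins and 15 cuticle proteins, 0 were called by limma in either direction, with medians of -0.05, -0.16 and 0.00. At 2-fold alone, 3 and 2, 2 and 2, and 2 and 0 were higher in the cardia and posterior midgut. Over all transcripts tested 0.439% and 0.0144% were called, and 2.27% and 2.28% were beyond 2-fold. At such shares most lists of this size would hold no call, so 0 calls does not show them level. The muscle, nerve and cuticle lists had medians of 0.31, 0.13 and -0.06 over 22, 13 and 6 members in the male-versus-female table. That whole table had a median of 0.19. A tropomyosin (EN013307) led the muscle list with ratios of 1.10, 1.71 and 0.99, while an actin (EN027706) had -1.54, -0.79 and -0.99. A GABA receptor subunit (EN004604) led the nerve list with 1.64, 1.40 and 1.33 (adjusted p = 0.0572). Cytosolic ribosomal proteins had a median of 0.15 over 64, with 0 called, and the proteins of the respiratory chain and ATP synthase had a median of 0.03 over 36, with 0 called. With the male-versus-female median at 0, the medians of these last lists, of the C-type lectins, of the P450s and of the conjugating enzymes fall below 0, since each is smaller than the shift of 0.21.

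Salivary gland transcripts were the marker list with a high median, 1.38 over 4 members and 1.06 over the 2 in the male-versus-female table, and 3 of the 4 differed between arrays. The SG1-like 3 protein (EN026986) had ratios of 0.26, 2.07 and 2.12, SG3 (EN009988) had -0.09, 1.81 and 2.09, and SG2 (EN010054) had -0.01, 0.90 and 1.65. These 3 were chosen after their values were seen. Array 1 was near 0 for each, while arrays 2 and 3 were near or beyond 2-fold, and none of the 3 was called. The fourth, EN012315, named CE5 only in the study's list of cardia peptides, was called with ratios of 1.77, 1.74 and 1.90 and shows no such gap. Over the list, arrays 2 and 3 exceeded array 1 by a median of 1.56 (log2). A gap of the same sign was seen in a cuticle transcript (EN022552, 0.59, 2.84 and 3.03), in TEP1, FBN8, FBN9 and LRRD7 and in the 4 short secreted transcripts, and it was chosen for description after the values were seen. The medians of this gap were 0.11 for the antimicrobial peptides, 0.14 for the lysozymes and 0.04 for the peritrophins. Their highest gaps were 0.59, 0.48 and 0.98. Among the cytosolic ribosomal proteins, 53 of which are in the male-versus-female table, array 1 was instead the highest in 52 of 64, with a gap of -0.51. That table as a whole had array 1 highest in 1266 of 1931, with a gap of -0.32, and all transcripts tested had it in 5401 of 13908. What part the tissue carried with each cardia pool had in these values was not tested.

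**Figure D4:**
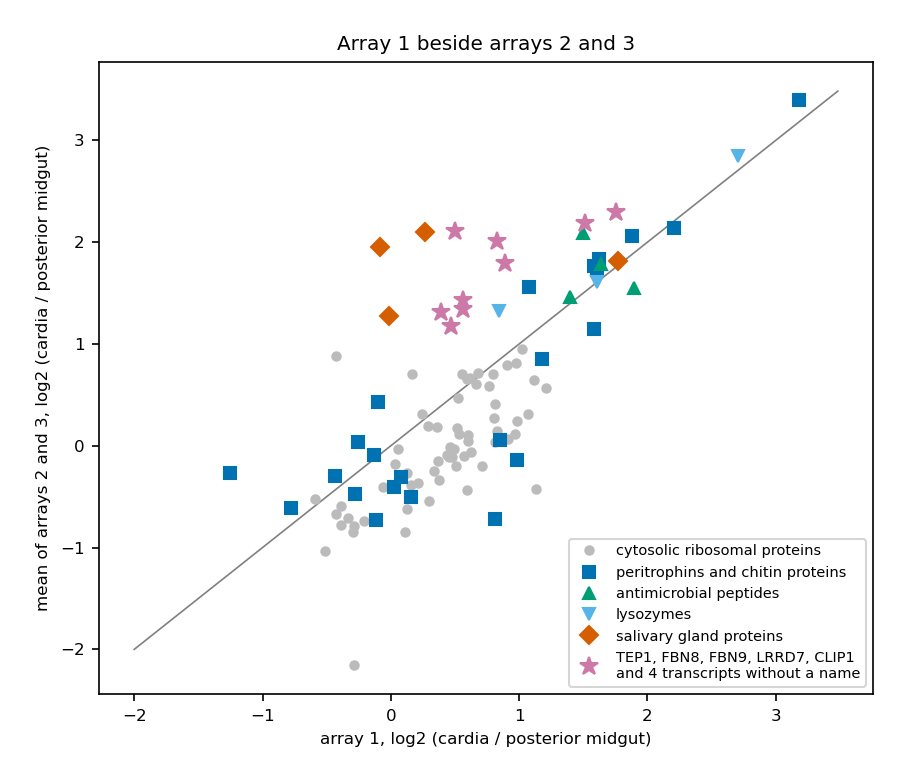
Log2 ratio of cardia to posterior midgut on array 1 (x axis) against the mean of arrays 2 and 3 (y axis) for members of 5 lists and for 9 transcripts chosen after their values were seen (stars), with equal values on the grey line. The 3 salivary gland transcripts SG1-like 3, SG2 and SG3 and the stars lie above the line, and most ribosomal proteins lie below it. Most antimicrobial peptides, lysozymes and high peritrophins lie nearer to it. A cecropin is 0.59 and a lysozyme 0.48 above it, and the cecropin lies further off than some stars.

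The transcripts called here were also followed on the arrays of the other comparisons, whose samples carry other labels. On those arrays the first-named sample held Cy5 as well, so a dye effect of a probe would repeat. Of the 61 transcripts called in the cardia, 57 had a value on each of the 3 arrays of cardia against whole midgut. There 48 of these 57 had a mean above 0 and 20 were above 0 on 3 of 3 arrays (35.1% beside 11.9% of all transcripts), with a median of 0.51 beside 0.11 for the male-versus-female table and -0.03 for all. The array medians of the 61 were 0.74, -0.12 and 0.94, so array 2 of that comparison did not show the excess. On the anterior midgut arrays 56 of 61 had a mean above 0, with a median of 1.18 beside 0.75 for the male-versus-female table. On the arrays of the anterior and the posterior section of the posterior midgut their medians were 0.60 and 0.41, below the 0.88 and 0.49 of that table. In male against female midgut 58 of 61 were above 0 on 3 of 3 arrays (95.1% beside 78.6% of the male-versus-female table, which holds 44 of the 61 and was chosen on these arrays, and 26.4% of all).

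Single transcripts differed in how they varied along the gut. EN020647 had means of 2.04 in the cardia, 1.27 in the anterior midgut, -0.37 in the anterior and -0.58 in the posterior section of the posterior midgut, each against whole midgut. The peritrophin EN026405 had 1.46 over 2 arrays in the cardia and -0.41, -0.39 and -0.98 in the other compartments. Gambicin, in contrast, had 0.61, 1.68, 1.36 and 1.15, with an SD of 1.00 in the cardia, and the innexin EN020577 had -0.45 ± 0.81 in the cardia. The aquaporin EN026763 was below 0 in each compartment, at -0.55, -0.49, -1.25 and -1.11, and the kinase chain EN022229 was at -0.24, -0.25, -0.31 and -0.31. Each value is relative to the median of all transcripts on its array, so its sign does not place a transcript above or below the whole midgut. The male-versus-female table, which holds gambicin, had medians of 0.11, 0.75, 0.88 and 0.49 in the same comparisons, in that order. The values of single transcripts are given side by side, and the differences between compartments were not tested.

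**Figure D5:**
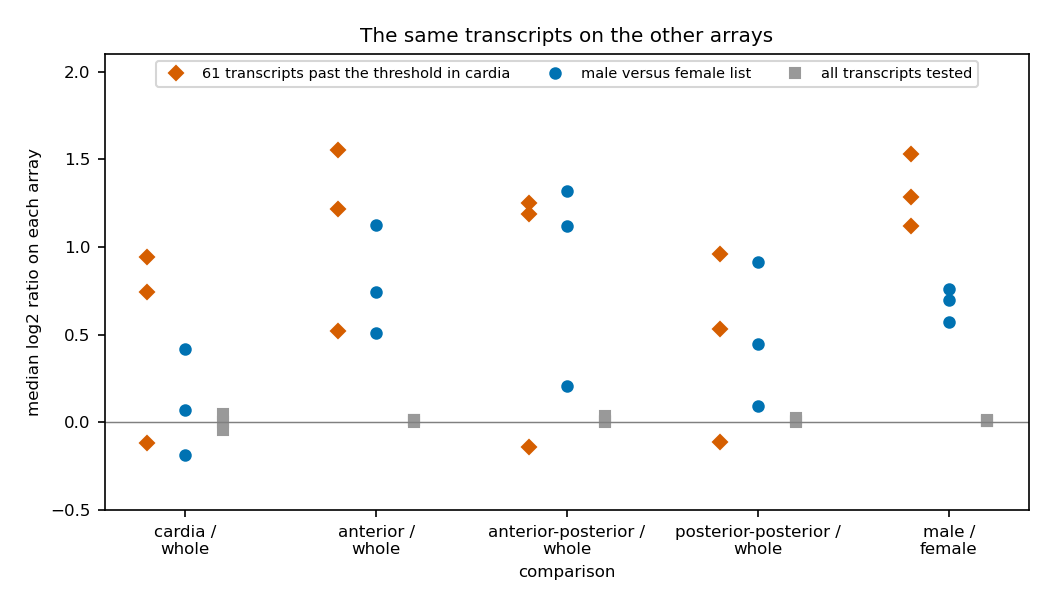
Median log2 ratio on each of the 3 arrays of the other comparisons (y axis) for the 61 transcripts called in the cardia, the male-versus-female table and all transcripts tested, each array centred on its own median. The 61 lie above both other sets on the male/female arrays and on 2 of 3 cardia arrays, and on the arrays of the posterior midgut they overlap those of the male-versus-female table.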

How the data were processed

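The authors scanned 2-colour oligonucleotide arrays with GenePix, then, by their methods, removed spots under 100 units of signal, applied LOWESS and ran t-tests. As deposited, the values are log2 ratios of Cy5 to Cy3 per feature, one column per array, and show neither the threshold nor the normalization. No intensities were used, so the number of arrays limits the precision. The placeholder 16.6096 (a ratio of 100000, 5 features on array 3) and blanks were treated as missing, features were averaged by transcript, and each array was centred on its median. limma 3.58.1 in R 4.3.3 tested the mean of the 3 arrays against 0, two-sided, over 13908 transcripts. Tables used Python 3.11, pandas 2.3.3 and NumPy 2.4.6. On simulated data, transcripts changed by 2 on the log2 scale were recovered in 79.9% (5.94% of calls false) and those changed by 1.5 in 0% (20% false). The simulation split the changes equally between both directions, all of 1 size, with independent normal noise from the fitted spread. It had no small-fraction ratios. In the data a mean of 1.55 (EN010545) was called, so these rates need not hold there. Named were the 12 largest calls with a text and 5 without in each direction, all antimicrobial peptides and lysozymes, the extremes of each of 24 lists and the transcripts the study names here. Members, lists and tests were chosen with earlier results of these data known. Alternatives changed the centring, spread, test, filters, spots, alignment of names and arrays. The study's own fold changes were not used. Chromosomal positions and sequences were not used here.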

Additional observations from a re-analysis of the deposited data

How the results depend on the processing

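Counts are given as higher in the cardia and higher in the posterior midgut, beside 61 and 2 called, 316 and 317 at 2-fold alone, 162 and 21 at 2-fold on each array, and 29 and 1 among members of the gene lists. With the male-versus-female median at 0 they were 0 and 0, 184 and 655, 101 and 75, and 0 and 0. Without centring they were 138 and 312, 194 and 613, 78 and 75, and 42 and 27. Within the male-versus-female table they were 185 and 19, 185 and 23, 117 and 4, and 43 and 4. Without transcripts with a small-fraction ratio they were 164 and 46, 164 and 46, 100 and 8, and 33 and 14. These last 2 settings tested fewer transcripts. limma on all 18 arrays called 67 and 9, and 26 and 2 in the lists, and 45 of the 61 calls in the cardia were shared. The methods' t-test called 251 and 62 at an unadjusted p, and 53 and 14 in the lists, but 0 and 0 after Benjamini-Hochberg adjustment, in the lists too. Leaving out each array in turn gave 0 to 137 and 0 to 59 called, 330 to 402 and 416 to 603 at 2-fold, 200 to 262 and 74 to 167 on each array, and 0 to 40 and 0 to 6 in the lists. With the names as listed in the table, 28 and 0 list members were called. Centring on the male-versus-female median raised the number of the 61 with a mean below 0 from 5 to 20 on the anterior midgut arrays, from 17 to 34 on the anterior-posterior arrays and from 19 to 33 on the posterior-posterior arrays. The mean correlation of the arrays was 0.28, or 0.66 in the male-versus-female table and 0.64 without small-fraction ratios, and 0.28 to 0.29 leaving out each array. The cause of these changes was not tested.

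Of the 68 named transcripts 0 changed sign under any setting, but most were picked for large means on these same arrays, so a kept sign says little. Of the 38 called among them, 38 lost the call with the male-versus-female median at 0, without array 1 and by the adjusted t-test, 23 without array 3, 9 with all 18 arrays and 1 with the median of the spots. Whether equal replicate numbers pair the arrays of different comparisons could not be told from their deviations. Arrays with the same number correlated at -0.12 to 0.10 over 15 pairs, and arrays with other numbers at -0.18 to 0.21. Repeated spots on the same array correlated at only 0.11 to 0.19, so a shared deviation could be missed. With the replicate number as a block 59 and 7 transcripts were called, and 21 and 1 in the lists. The rule of 2-fold on each array, the names as listed and the families by row names were added after the data had been seen.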
